A study of Mus musculus with 6 samples.

Results

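The 10 genes described here encode the core membrane and adaptor proteins of planar cell polarity: Vangl1, Vangl2, Celsr1, Celsr2, Celsr3, Prickle1, Prickle2, Scrib, Ptk7 and Dact1. They were taken by name from the 24062 genes of the deposited tables, and all 10 were present and passed the filter on low counts that left 15187 genes for testing. PolyA-selected RNA from mouse embryo heads dissected at embryonic day 8.5, on a C57BL/6 background, had been sequenced in 6 libraries, 2 per genotype. The mutant embryos were Prdm15 tm1a-/-, the heterozygous embryos Prdm15 tm1a+/- and the wild-type embryos Prdm15 tm1a+/+. The tm1a allele is a knockout-first cassette inserted in Prdm15, which encodes a PRDM zinc finger protein, and no other allele or agent is labelled. The labels do not say whether the heads came from separate litters, so each p reflects how far these particular libraries vary, which may be technical.

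Planar cell polarity aligns cells within the plane of a tissue. Celsr cadherins bridge neighbouring cells, and Frizzled with Dishevelled gathers on one side of a cell junction while Vangl with Prickle gathers on the other. In vertebrate embryos the pathway drives convergent extension, the narrowing and lengthening of the neural plate that lets the neural folds meet. Mice that lack Vangl2, Celsr1, Scrib or Ptk7 function can fail to close the neural tube along most of its length.

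For wild-type replicate 2 and mutant replicate 1 the attached count files carry each other's titles. Each of the 6 files had its zeros at the same genes as the RPKM column bearing the title in the file name (0 genes differed), and the ratio of count to RPKM matched that column within 0.1% at 100% of the genes compared. The files were therefore used by title. The libraries held 29412227 to 40439234 reads in genes. Both mutant libraries and wild-type replicate 2 had 32299 to 47887 reads of Xist, the RNA of the inactive X chromosome, and the other libraries 8 to 11. Genotype and Xist level therefore cannot be told apart in mutant against heterozygous heads. Within a genotype Xist differed only between the 2 wild-type libraries, so a term for high Xist rests on those. Prdm15 itself did not differ between mutant and wild-type heads by the test (26.6 and 32.0 CPM against 35.2 and 32.6 CPM, log2 fold change -0.21, SE 0.12, adjusted p = 0.221; 0.49, adjusted p = 0.00673, when scaled to neural progenitor genes), and whole-gene counts of an inserted cassette do not check the genotype.

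In mutant against wild-type heads the core genes moved apart. Prickle1, Vangl1 and Dact1 were higher, by 1.72 to 2.80-fold, and Celsr2, Celsr3, Vangl2, Celsr1 and Scrib were lower relative to all genes, Celsr2 most, at 0.499-fold. When the libraries were scaled to neural progenitor genes instead, Celsr2 alone of these stayed lower. Prickle2 and Ptk7 did not pass under TMM scaling, but were called higher when scaled to progenitor genes. With TMM scaling 8 of the 10 were thus called at an adjusted p under 0.05 in edgeR's quasi-likelihood test, 3 higher and 5 lower. Of all tested genes 30.6% were called, 17.1% higher and 13.6% lower. The median log2 fold change of the 10 was -0.04, beside -0.02 over all genes. With the count files left under the samples they are attached to, 0 of the 10 and 0 of all genes were called in this comparison, with 0 and 318 at an unadjusted p under 0.05.

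**Figure D1:**
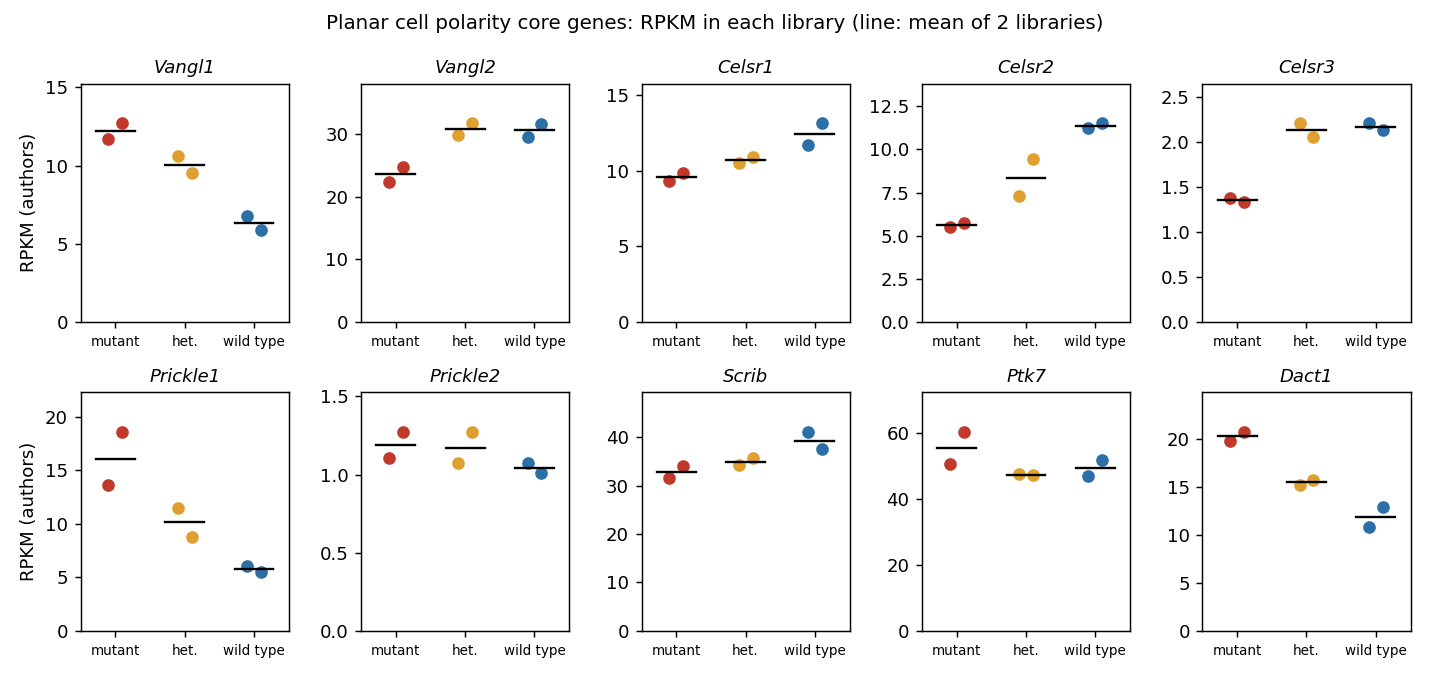
RPKM of the 10 genes in each library (points), with the mean of 2 libraries as a line, for mutant, heterozygous and wild-type heads; every vertical axis starts at 0 and has its own scale. Prickle1, Vangl1 and Dact1 are highest in mutant heads, while Celsr2 lies between 5.53 and 5.75 in mutant and between 11.2 and 11.5 in wild-type heads.

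On the RPKM scale, which is per length and so allows genes to be set side by side, the genes spanned a wide range in wild-type heads. Ptk7 was the most abundant, at 46.9 and 51.9 RPKM, above 91.9% of the 19272 genes with any reads. Scrib followed at 41.1 and 37.6 RPKM and Vangl2 at 29.6 and 31.6 RPKM. The next levels were less distinct: the libraries of Celsr1 (11.7 and 13.1), Dact1 (10.8 and 12.9) and Celsr2 (11.2 and 11.5) overlapped, as did those of Vangl1 (6.77 and 5.90) and Prickle1 (6.05 and 5.51). Celsr3, at 2.21 and 2.13 RPKM, and Prickle2, at 1.07 and 1.01 RPKM, were the lowest and stood above 45.5% and 38.7% of those genes. In mutant heads Ptk7, Scrib and Vangl2 kept the first ranks. Dact1 came next at 19.8 and 20.7 RPKM, then Prickle1 at 13.6 and 18.6 and Vangl1 at 11.7 and 12.7, all above Celsr1 at 9.35 and 9.88. The RPKM of the 10 genes summed to 167 and 189 in mutant, 170.1 and 172 in heterozygous and 167 and 173 in wild-type libraries, so the sums overlapped.

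Promoter sequence, 250 bases before to 50 bases after an annotated start, was held for 7 of the 10 genes, from RefSeq on GRCm38.p6, with 11 starts in all. The 4 shown are those of a gene that was higher from each of the Prickle and Dact families and of the genes Celsr2 and Vangl2, which were lower under TMM scaling, so that opposite movers can be compared; for Prickle1 the upstream start is shown. The windows are chr15:93595853-93596152 (minus strand), chr12:71309634-71309933 (plus strand), chr3:108415530-108415829 (minus strand) and chr1:172027246-172027545 (minus strand). Sequences run 5′ to 3′ along the gene, and capitals mark a GC box (GGGCGG, either strand) or the core bound by Otx-type homeodomains (TAATCC, either strand).
Prickle1: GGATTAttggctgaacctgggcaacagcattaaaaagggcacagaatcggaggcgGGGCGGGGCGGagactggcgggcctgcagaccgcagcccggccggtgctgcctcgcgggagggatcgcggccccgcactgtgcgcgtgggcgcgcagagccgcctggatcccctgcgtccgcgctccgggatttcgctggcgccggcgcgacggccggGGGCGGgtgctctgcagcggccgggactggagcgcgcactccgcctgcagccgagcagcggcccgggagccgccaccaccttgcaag
Dact1: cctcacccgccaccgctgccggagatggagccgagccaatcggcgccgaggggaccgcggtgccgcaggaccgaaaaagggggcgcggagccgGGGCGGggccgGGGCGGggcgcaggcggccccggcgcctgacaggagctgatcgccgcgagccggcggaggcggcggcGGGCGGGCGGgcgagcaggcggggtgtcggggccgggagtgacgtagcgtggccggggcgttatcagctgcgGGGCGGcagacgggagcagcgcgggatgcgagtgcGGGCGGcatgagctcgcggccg
Celsr2: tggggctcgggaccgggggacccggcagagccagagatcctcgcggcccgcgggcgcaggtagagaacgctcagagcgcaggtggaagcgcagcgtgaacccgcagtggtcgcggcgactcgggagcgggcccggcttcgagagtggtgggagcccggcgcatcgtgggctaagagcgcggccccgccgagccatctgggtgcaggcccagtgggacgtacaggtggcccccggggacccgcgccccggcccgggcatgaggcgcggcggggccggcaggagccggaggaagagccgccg
Vangl2: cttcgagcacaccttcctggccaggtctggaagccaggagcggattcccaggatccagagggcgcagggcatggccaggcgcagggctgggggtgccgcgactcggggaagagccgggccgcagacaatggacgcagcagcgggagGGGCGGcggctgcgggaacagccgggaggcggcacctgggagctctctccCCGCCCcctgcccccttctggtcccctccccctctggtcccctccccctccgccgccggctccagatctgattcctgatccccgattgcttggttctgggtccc
All 4 windows were rich in CG dinucleotides, with 39 in Prickle1, 50 in Dact1, 40 in Celsr2 and 21 in Vangl2, against a median of 7 over 32851 promoter windows. The number of CG in Dact1 exceeded that of 99.1% of the windows, and the number in Vangl2 exceeded that of 75.2%. GC boxes, some overlapping, were found 6 times in Dact1, 3 times in Prickle1, 2 times in Vangl2 and 0 times in Celsr2. In the windows not shown they were found 2 times in Celsr3, 1 time in Ptk7 and 2 times at the other Prickle1 start. The 4 Prickle2 windows held 3, 2, 0 and 1. Of all windows 35.7% held at least 1. TAATCC or its reverse complement occurred at the first base of the upstream Prickle1 window and not in the other Prickle1 window. It also occurred in 1 of the 4 Prickle2 windows, and in 7.06% of all windows. None of the 11 windows held a TATAAA motif on either strand, which 13.6% of all windows did. These matches are descriptions of letters and not of bound sites.

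The Celsr genes encode atypical cadherins of the adhesion receptor class, which hold the polarity complexes of adjacent cells together. Celsr2 (chromosome 3, 108390851 to 108415552, minus strand, GRCm38) stood at 5.53 and 5.75 RPKM in mutant, 7.31 and 9.44 in heterozygous and 11.2 and 11.5 in wild-type heads. No library of any genotype overlapped with those of another. Its log2 fold change in mutant against wild-type heads was -1.0 (SE 0.12, adjusted p = 0.00386), the largest fall of the 10; scaled to neural progenitor genes it was -0.31 (adjusted p = 0.0346). Celsr3 (chromosome 9, 108826320 to 108852969, plus strand), which is best known in neurons, where it guides axon tracts, was at 1.37 and 1.34 RPKM in mutant heads, 2.21 and 2.06 in heterozygous heads and 2.21 and 2.13 in wild-type heads. Here the heterozygous libraries lay with the wild-type ones and the mutant libraries below both. The log2 fold change in mutant against wild-type heads was -0.67 (SE 0.08, adjusted p = 0.00382), and 0.03 (adjusted p = 0.841) when scaled to progenitor genes. Celsr1 (chromosome 15, 85898929 to 86033777, minus strand), the gene altered in the crash mouse, was at 9.35 and 9.88 RPKM in mutant, 10.5 and 10.9 in heterozygous and 11.7 and 13.1 in wild-type heads. The order followed the number of tm1a copies, but the step was small: in mutant against wild-type heads it was -0.36 on the log2 scale (SE 0.07, adjusted p = 0.0140), turning to 0.33 (adjusted p = 0.0285) when scaled to progenitor genes. It missed the threshold without mutant replicate 1 (adjusted p = 0.0705) and without wild-type replicate 2 (adjusted p = 0.0516). Celsr2 made up 34.0% and 33.9% of the summed Celsr RPKM in mutant, 36.4% and 42.2% in heterozygous and 44.7% and 43.0% in wild-type heads, and the mutant shares did not overlap with the others.

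Vangl1 and Vangl2 encode the multipass membrane proteins that recruit Prickle, and the paralogs went opposite ways. Vangl1 (chromosome 3, 102153583 to 102204693, minus strand) was at 11.7 and 12.7 RPKM in mutant, 10.6 and 9.51 in heterozygous and 6.77 and 5.90 in wild-type heads. Both mutant libraries exceeded both heterozygous ones, and these exceeded both wild-type ones. In mutant against wild-type heads it rose by 0.95 on the log2 scale (SE 0.10, adjusted p = 0.00269). Vangl2 (chromosome 1, 172000960 to 172028444, minus strand), the gene altered in the loop-tail mouse, was at 22.3 and 24.8 RPKM in mutant, 29.9 and 31.7 in heterozygous and 29.6 and 31.6 in wild-type heads. The heterozygous and wild-type libraries overlapped, and the mutant ones lay below. Its log2 fold change of -0.37 (SE 0.08, adjusted p = 0.0195) turned to 0.33 (adjusted p = 0.0315) when scaled to progenitor genes. It missed the threshold without mutant replicate 1 (adjusted p = 0.0915), wild-type replicate 1 (adjusted p = 0.0547) or wild-type replicate 2 (adjusted p = 0.0752). Summed, the pair came to 34.0 and 37.5 RPKM in mutant, 40.5 and 41.2 in heterozygous and 36.4 and 37.5 in wild-type heads, with mutant and wild-type libraries overlapping.

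Because a ratio of genes within a library does not depend on how libraries are scaled, the paralogs were also set against each other in each library. The RPKM of Vangl2 exceeded that of Vangl1 by 1.91 and 1.96 times in mutant, 2.82 and 3.33 times in heterozygous and 4.37 and 5.36 times in wild-type heads. Prickle1 exceeded Prickle2 by 12.3 and 14.6 times in mutant, 10.7 and 6.91 times in heterozygous and 5.65 and 5.47 times in wild-type heads. For both pairs the genotypes did not overlap. The ratio of Celsr1 to Celsr2 was 1.69 and 1.72 in mutant, 1.44 and 1.15 in heterozygous and 1.04 and 1.14 in wild-type heads, again without overlap. For Celsr2 over Celsr3 the ratio was 4.0 and 4.3 in mutant, 3.3 and 4.6 in heterozygous and 5.1 and 5.4 in wild-type heads. Here mutant and heterozygous libraries overlapped. Scrib over Ptk7 was 0.626 and 0.566 in mutant, 0.719 and 0.756 in heterozygous and 0.875 and 0.724 in wild-type heads. There heterozygous and wild-type libraries overlapped. A ratio shows unequal change and not which partner moved, and an exact permutation test of 2 libraries against 2 cannot go below a two-sided p of 0.333, so none was run.

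**Figure D2:**
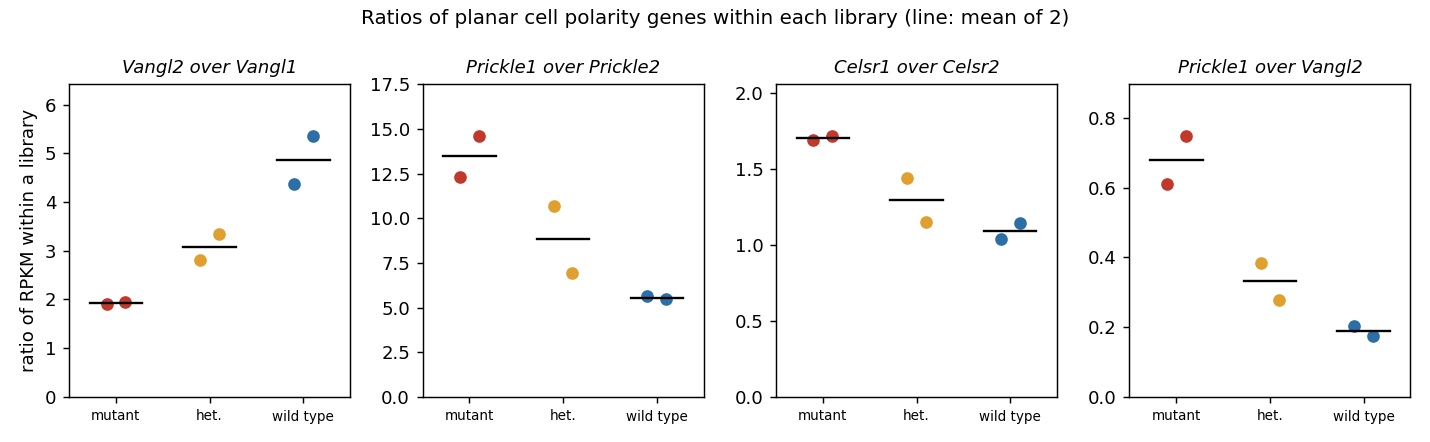
Ratios of RPKM between members of the set within each library (points, with the mean of 2 libraries as a line), for mutant, heterozygous and wild-type heads, on axes that start at 0. The ratios of Celsr2 to Celsr3 and of Scrib to Ptk7, in which genotypes overlap, are not shown. The mean ratio of Vangl2 to Vangl1 is 1.93 in mutant, 3.08 in heterozygous and 4.86 in wild-type heads, and that of Prickle1 to Vangl2 is 0.679 in mutant, 0.331 in heterozygous and 0.189 in wild-type heads.

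Prickle1 and Prickle2 encode LIM-domain proteins that bind Vangl on the inner face of the membrane. Prickle1 (chromosome 15, 93499114 to 93595891, minus strand) had the largest change of the set. It was at 13.6 and 18.6 RPKM in mutant, 11.5 and 8.78 in heterozygous and 6.05 and 5.51 in wild-type heads, and the genotypes did not overlap. Its log2 fold change in mutant against wild-type heads was 1.48 (SE 0.19, adjusted p = 0.00458). Prickle2 (chromosome 6, 92370908 to 92706155, minus strand) was at 1.10 and 1.27 RPKM in mutant, 1.07 and 1.27 in heterozygous and 1.07 and 1.01 in wild-type heads, on 273 to 362 reads a library. It did not pass in mutant against wild-type heads (log2 fold change 0.20, 95% interval -0.16 to 0.56, adjusted p = 0.344), so a change of the size seen in Prickle1 lay outside its interval. Scaled to progenitor genes Prickle2 was called higher, at 0.90 (adjusted p = 0.00147).

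Among the adaptors and co-receptors, Dact1 (chromosome 12, 71309884 to 71320107, plus strand), a Dishevelled-binding protein that also acts with Vangl2, was at 19.8 and 20.7 RPKM in mutant, 15.2 and 15.8 in heterozygous and 10.8 and 12.9 in wild-type heads. The genotypes were again in the order of tm1a copies without overlap, and the log2 fold change in mutant against wild-type heads was 0.78 (SE 0.10, adjusted p = 0.00404). Scrib (chromosome 15, 76047158 to 76069784, minus strand), a PDZ-domain scaffold of cell polarity that binds Vangl2, was at 31.7 and 34.1 RPKM in mutant, 34.2 and 35.7 in heterozygous and 41.1 and 37.6 in wild-type heads. This was the smallest change called, at -0.25 (SE 0.06, adjusted p = 0.0327), and it turned to 0.45 (adjusted p = 0.00399) when scaled to progenitor genes. Scrib missed the threshold in 5 of the 6 fits that each left out a library, at an adjusted p of 0.184 without mutant replicate 1, 0.0594 without mutant replicate 2, 0.0654 without heterozygous replicate 1, 0.0540 without heterozygous replicate 2 and 0.185 without wild-type replicate 1. With a term for high Xist its log2 fold change was -0.19 (adjusted p = 0.151). Ptk7 (chromosome 17, 46564471 to 46629504, minus strand), a receptor-like protein with an inactive kinase domain, was at 50.6 and 60.3 RPKM in mutant, 47.6 and 47.2 in heterozygous and 46.9 and 51.9 in wild-type heads. Mutant and wild-type libraries overlapped, and the difference did not pass (log2 fold change 0.17, 95% interval -0.05 to 0.40, adjusted p = 0.201). Ptk7 did pass when scaled to progenitor genes (0.87, adjusted p = 0.00113). In CPM the libraries of mutant and wild-type heads did not overlap for the other 9 genes, as for 71% of all genes tested.

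The authors' deposited table, whose header has a likelihood ratio column, gives for mutant over wild type a log2 fold change of 1.48 for Prickle1, with a false discovery rate of 1.31e-11. In the authors' deposited table Celsr2 is at -1.01, with a rate of 1.23e-13, and Vangl1 at 0.94, with a rate of 6.88e-07. Scrib has a rate of 0.0603 in the authors' deposited table and so does not pass 0.05 there.

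**Figure D3:**
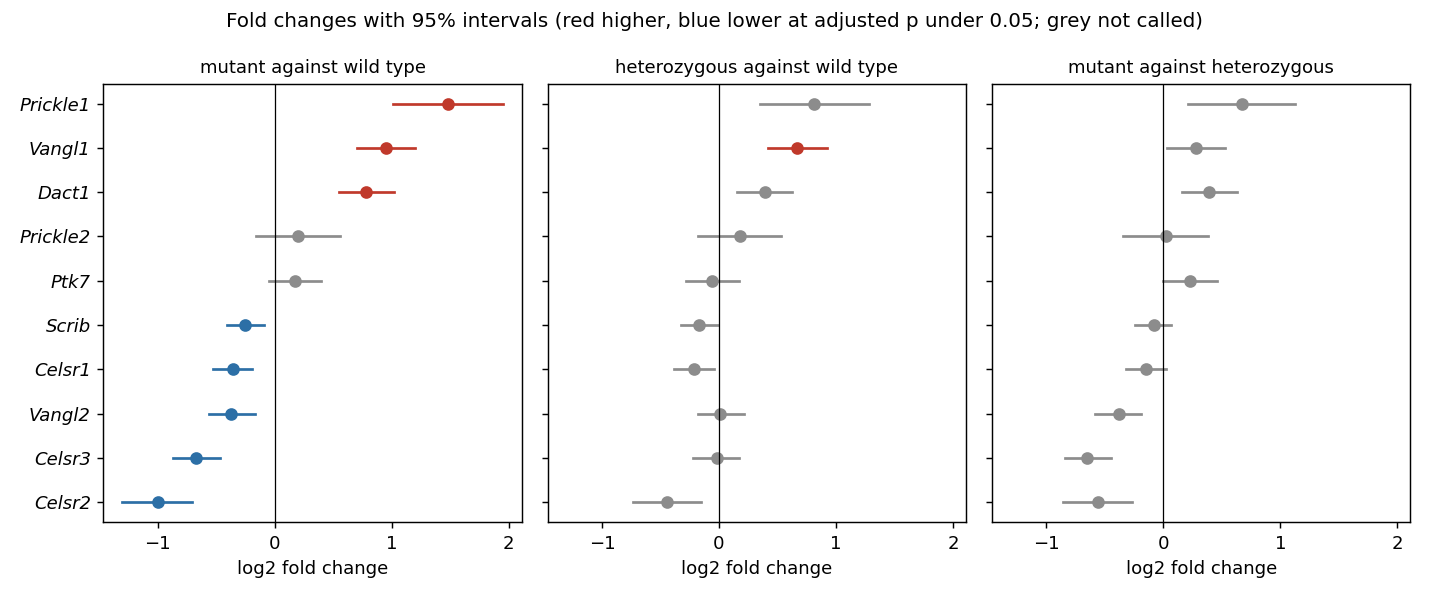
Log2 fold changes of the 10 genes (points) with 95% intervals (bars) from edgeR's quasi-likelihood fit with TMM scaling, in 3 comparisons of genotypes. In mutant against wild-type heads 3 genes are higher (red) and 5 lower (blue). Of these, Vangl2, Celsr1, Scrib and Celsr3 are not lower when libraries are scaled to neural progenitor genes. Vangl1 is the only member called in heterozygous against wild-type heads. None is called in mutant against heterozygous heads, where that scaling calls 6, all higher, beside 7919 of all 15187 genes higher.

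Heterozygous heads carry a single tm1a copy. Against wild-type heads only Vangl1 passed, 1 of 10 where 6.56% of all tested genes did (6.03% higher and 0.533% lower), with a log2 fold change of 0.67 (SE 0.10, adjusted p = 0.0205). It missed the threshold without heterozygous replicate 1 (adjusted p = 0.124), without wild-type replicate 2 (adjusted p = 0.0720) and with a term for high Xist (adjusted p = 0.0777). Prickle1 was at 0.81 (SE 0.19, adjusted p = 0.0651), Dact1 at 0.39 (SE 0.10, adjusted p = 0.0752) and Celsr2 at -0.44 (SE 0.12, adjusted p = 0.0973). DESeq2 and the likelihood ratio test of edgeR called 4 members each here, and 1890 and 1579 of all genes respectively. For Vangl2 (0.01, 95% interval -0.18 to 0.21) and Celsr3 (-0.02, 95% interval -0.22 to 0.17) the intervals left out the falls measured in mutant heads under TMM scaling. Scaled to progenitor genes there was no such fall: Vangl2 was at 0.33 in mutant and 0.25 in heterozygous heads against wild type, and Celsr3 at 0.03 in mutant and 0.22 in heterozygous heads. In heterozygous against wild-type heads that scaling called 1696 of all genes, 1672 of them higher. It called 3 members, all higher: Vangl1 (0.92, adjusted p = 0.00772), Prickle1 (1.07, adjusted p = 0.0204) and Dact1 (0.63, adjusted p = 0.0289).

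In mutant against heterozygous heads 0 of the 10 genes passed edgeR's quasi-likelihood test, where 0.435% of all genes did (0.0724% higher and 0.362% lower), although 7 of the 10 and 3228 of all genes had an unadjusted p under 0.05. DESeq2 called 5 of the 10 and 1313 of all genes, and the likelihood ratio test 4 of the 10 and 801 of all genes. Scaled to progenitor genes the quasi-likelihood test called 6 of the 10, all higher, and 8117 of all genes, 7919 of them higher. With TMM scaling Celsr3 was nearest in the quasi-likelihood test, at -0.65 (SE 0.08, adjusted p = 0.05002, just above the threshold). Vangl2 at -0.38 (SE 0.08, adjusted p = 0.0955) and Celsr2 at -0.56 (SE 0.12, adjusted p = 0.0955) came next. Scaled to progenitor genes Celsr3 was at -0.19 (adjusted p = 0.243) and Celsr2 at -0.10 (adjusted p = 0.456), and Vangl2 turned to 0.08 (adjusted p = 0.579). The comparisons share libraries and are not independent of each other. Both mutant libraries were high and both heterozygous ones low in Xist, so these differences cannot be told apart from differences that go with Xist.

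Whether a heterozygous level departs from the midpoint of mutant and wild type was tested directly. None of the 10 did in edgeR's quasi-likelihood test, where 0.632% of all genes did. There 2 of the 10 and 1494 of all genes had an unadjusted p under 0.05. The likelihood ratio test also called 0 of the 10, with 384 of all genes above the midpoint and 12 below. Celsr3 was at 0.31 (SE 0.07, adjusted p = 0.207) above the midpoint on the log2 scale, Vangl2 at 0.20 (SE 0.07, adjusted p = 0.439) and Vangl1 at 0.19 (SE 0.09, adjusted p = 0.555). The libraries of 6 genes (Vangl1, Celsr1, Celsr2, Prickle1, Scrib and Dact1) were ordered by genotype without overlap, a pattern that 24.8% of all genes tested showed.

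Markers of several tissues differed between the genotypes along with these levels, from lists that earlier results of these data informed. The 17 neural progenitor markers summed to 955 and 1032 CPM in mutant, 1302 and 1493 in heterozygous and 1732 and 1622 in wild-type libraries, and 13 of them were lower and 0 higher in mutant against wild-type heads. The 17 yolk sac visceral endoderm markers in the files summed to 5672 and 4764 CPM in mutant, 3176 and 2302 in heterozygous and 174 and 182 in wild-type libraries, and all 17 were higher in mutant against wild-type heads. The 17 heart markers summed to 2314 and 1376 CPM in mutant, 1947 and 3008 in heterozygous and 273 and 135 in wild-type libraries, with 14 of the 16 tested higher. Surface ectoderm markers, 12 in number, summed to 1540 and 1418 CPM in mutant, 1123 and 880 in heterozygous and 607 and 623 in wild-type libraries, with 5 higher and 1 lower. The 16 head mesenchyme markers came to 666 and 671 CPM in mutant, 537 and 572 in heterozygous and 451 and 507 in wild-type libraries, with 8 of the 15 tested higher and 2 lower. The 18 trunk and tailbud markers came to 131 and 348 CPM in mutant, 80.8 and 90.7 in heterozygous and 61.6 and 24.8 in wild-type libraries, with 9 of the 16 tested higher and 1 lower. The 12 endothelium and blood markers came to 359 and 310 CPM in mutant, 286 and 541 in heterozygous and 379 and 547 in wild-type libraries, with 1 higher and 1 lower. In every list and genotype all markers had reads, except 2 trunk markers in the heterozygous libraries. The part of these tissues in the levels of the polarity genes was not tested, and in bulk RNA fewer cells of a type and less RNA per cell cannot be told apart.

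Scaling the libraries to the summed progenitor markers raised the median log2 fold change of all genes to 0.68 in mutant against wild-type heads. Such a rescaling adds nearly the same amount to every gene, so it moves each gene against 0 and leaves the differences between genes as they were. On the progenitor scale 9 of the 10 were called, all but Celsr3, where 11182 of the 15187 genes tested were called, 10767 of them higher. Celsr2 was the only one of the 9 below 0. Celsr2 was thus lower than wild type also per unit of progenitor marker RNA, and Prickle1 (2.18, adjusted p = 0.000360), Vangl1 (1.65, adjusted p = 0.000237) and Dact1 (1.48, adjusted p = 0.000298) were higher under both scalings.

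**Figure D4:**
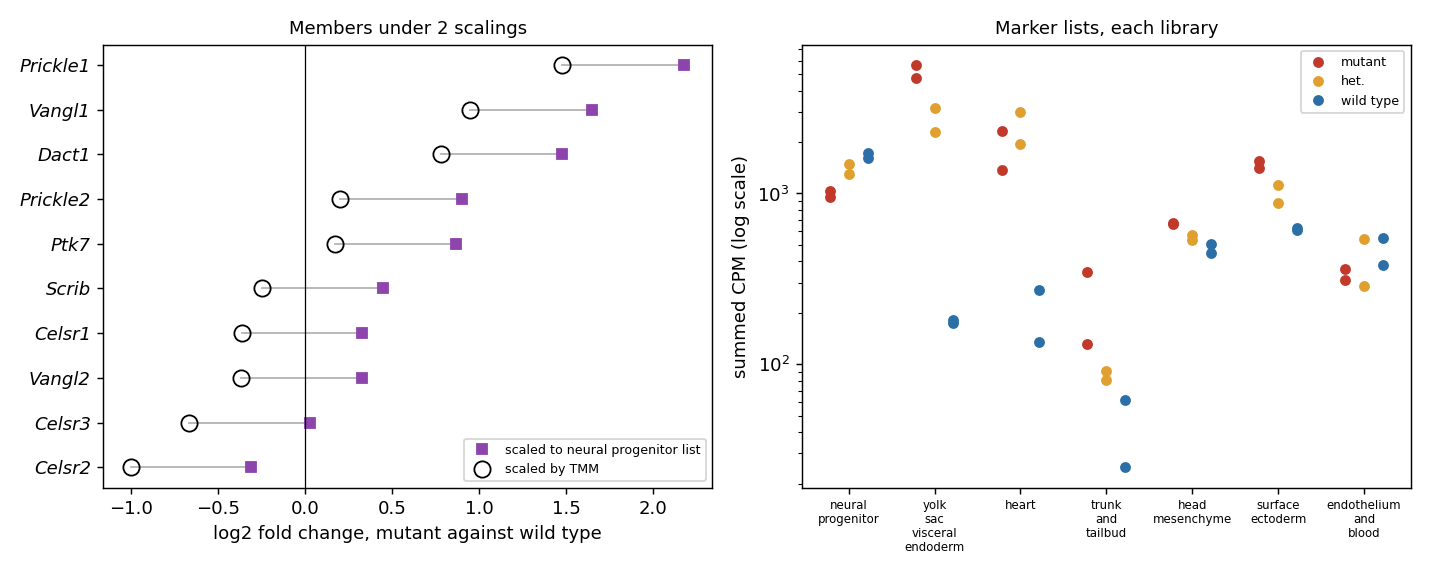
Left, log2 fold changes of the 10 genes in mutant against wild-type heads under TMM scaling (circles) and scaled to the neural progenitor list (squares), where Celsr2 is the only gene below 0. Right, summed CPM of marker lists in each library on a log axis; progenitor sums are lowest in mutant heads (955 and 1032) and yolk sac sums highest there (5672 and 4764).

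The other genes of the pathway were described from 48 listed symbols, of which 47 were in the files and all 47 were tested. In mutant against wild-type heads 16 were called, 8 higher and 8 lower, against the 30.6% called among all genes, with a median log2 fold change of -0.06. Scaled to progenitor genes, 39 of the 47 were called, 37 higher and 2 lower. That scaling called 11182 of the 15187 genes tested, 10767 higher and 415 lower. Among the ligands, receptors and co-receptors 4 of 12 were higher and 3 lower under TMM scaling. Wnt5a, a ligand of the non-canonical Wnt pathway, was at 55.4 and 53.2 CPM in mutant, 35.0 and 40.6 in heterozygous and 30.3 and 23.3 in wild-type heads, with a log2 fold change in mutant against wild-type heads of 1.02 (SE 0.14, adjusted p = 0.00593). Fzd3, the Frizzled receptor that works with Celsr3 in axon guidance and with Fzd6 in neural tube closure, was at 78.7 and 79.7 CPM in mutant, 107 and 149 in heterozygous and 186 and 183 in wild-type heads. Its log2 fold change was -1.22 (SE 0.14, adjusted p = 0.00380), the same direction as Celsr2 and Celsr3 under TMM scaling. Scaled to progenitor genes Fzd3 was at -0.52 (adjusted p = 0.00523) and Celsr2 at -0.31, but Celsr3 at 0.03. Fzd6 did not pass (0.25, SE 0.19, adjusted p = 0.364), but did when scaled to progenitor genes (0.94, adjusted p = 0.00786). Of the proteoglycans that modulate the pathway, Sdc4 was higher at 0.83 (SE 0.07, adjusted p = 0.00137) and Gpc4 lower at -0.88 (SE 0.11, adjusted p = 0.00411), which was -0.18 (adjusted p = 0.337) when scaled to progenitor genes.

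The Dishevelled genes, which encode the cytoplasmic hub that Frizzled recruits, did not pass and had narrow intervals under TMM scaling. Dvl1 was at 0.13 (95% interval -0.06 to 0.31), Dvl2 at 0.02 (95% interval -0.11 to 0.15) and Dvl3 at 0.06 (95% interval -0.21 to 0.33). Scaled to progenitor genes Dvl1 was at 0.83 (adjusted p = 0.000757), Dvl2 at 0.72 (adjusted p = 0.000815) and Dvl3 at 0.77 (adjusted p = 0.00134). Both paralogs of Dact1 were higher in mutant against wild-type heads: Dact2 by 2.02 (SE 0.24, adjusted p = 0.00374) and Dact3 by 1.22 (SE 0.18, adjusted p = 0.00686), the only calls among the 13 cytoplasmic core and adaptor genes. Dact2 stood at 39.9 and 43.4 CPM in mutant, 26.8 and 24.8 in heterozygous and 12.9 and 7.59 in wild-type heads. All 3 Dact genes were thus higher in mutant heads, under TMM and progenitor scaling alike. Of the 10 cytoskeletal effectors, Daam1, a formin that binds Dishevelled, was higher (0.70, SE 0.09, adjusted p = 0.00494) and Mapk10, a neuronal Jun kinase, lower (-3.25, SE 0.47, adjusted p = 0.00639). The other 8, which include Rac1 and both Rock genes, did not pass. The levels of Mapk10 were low, at 1.04 and 0.681 CPM in mutant, 2.13 and 5.06 in heterozygous and 7.77 and 8.76 in wild-type heads. In limma on log2(RPKM + 1) its log2 fold change was -0.94 (adjusted p = 0.0105).

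Of the 4 planar polarity effectors of ciliogenesis 1 was called, Intu, at -0.36 (SE 0.08, adjusted p = 0.0221), which turned to 0.35 when scaled to progenitor genes. Intu missed the threshold without mutant replicate 1 (adjusted p = 0.0966), mutant replicate 2 (0.0933), wild-type replicate 1 (0.108) or wild-type replicate 2 (0.0528), with a term for high Xist (0.0954) and in limma without a filter (0.0664). Of the 3 Fat and Dachsous polarity genes 1 was called, the large cadherin gene Fat4, at -1.25 (SE 0.32, adjusted p = 0.0317), which was -0.56 (adjusted p = 0.116) when scaled to progenitor genes. Fat4 missed the threshold without mutant replicate 1 (adjusted p = 0.0837), mutant replicate 2 (0.136) or wild-type replicate 2 (0.0861) and in limma without a filter (0.0676). Of the 5 Scrib module partners, Llgl2, an epithelial homolog of the fly polarity gene lgl, was higher at 1.69 (SE 0.14, adjusted p = 0.00121). Llgl1 at -0.39 (SE 0.08, adjusted p = 0.0152) and Arhgef7, a Rac and Cdc42 exchange factor that binds Scrib, at -0.35 (SE 0.06, adjusted p = 0.00905) were lower, and turned to 0.32 for Llgl1 and 0.35 for Arhgef7 when scaled to progenitor genes. Llgl1 missed the threshold without mutant replicate 1 (adjusted p = 0.0701), mutant replicate 2 (0.0716) or wild-type replicate 1 (0.0705) and with a term for high Xist (0.0616), and Arhgef7 without mutant replicate 1 (adjusted p = 0.0508). Llgl2 was at 98.0 and 89.5 CPM in mutant, 68.9 and 61.3 in heterozygous and 32.7 and 25.3 in wild-type heads, in the order of tm1a copies like Vangl1. In heterozygous against wild-type heads 3 of the 47 were called, all higher (Sdc4, Dact2 and Llgl2). Of all genes tested 6.56% were called there, 6.03% higher and 0.533% lower. In mutant against heterozygous heads 1 of the 47 was called, Gpc4, which was lower, where 0.435% of all genes were called and 0.362% were lower.

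**Figure D5:**
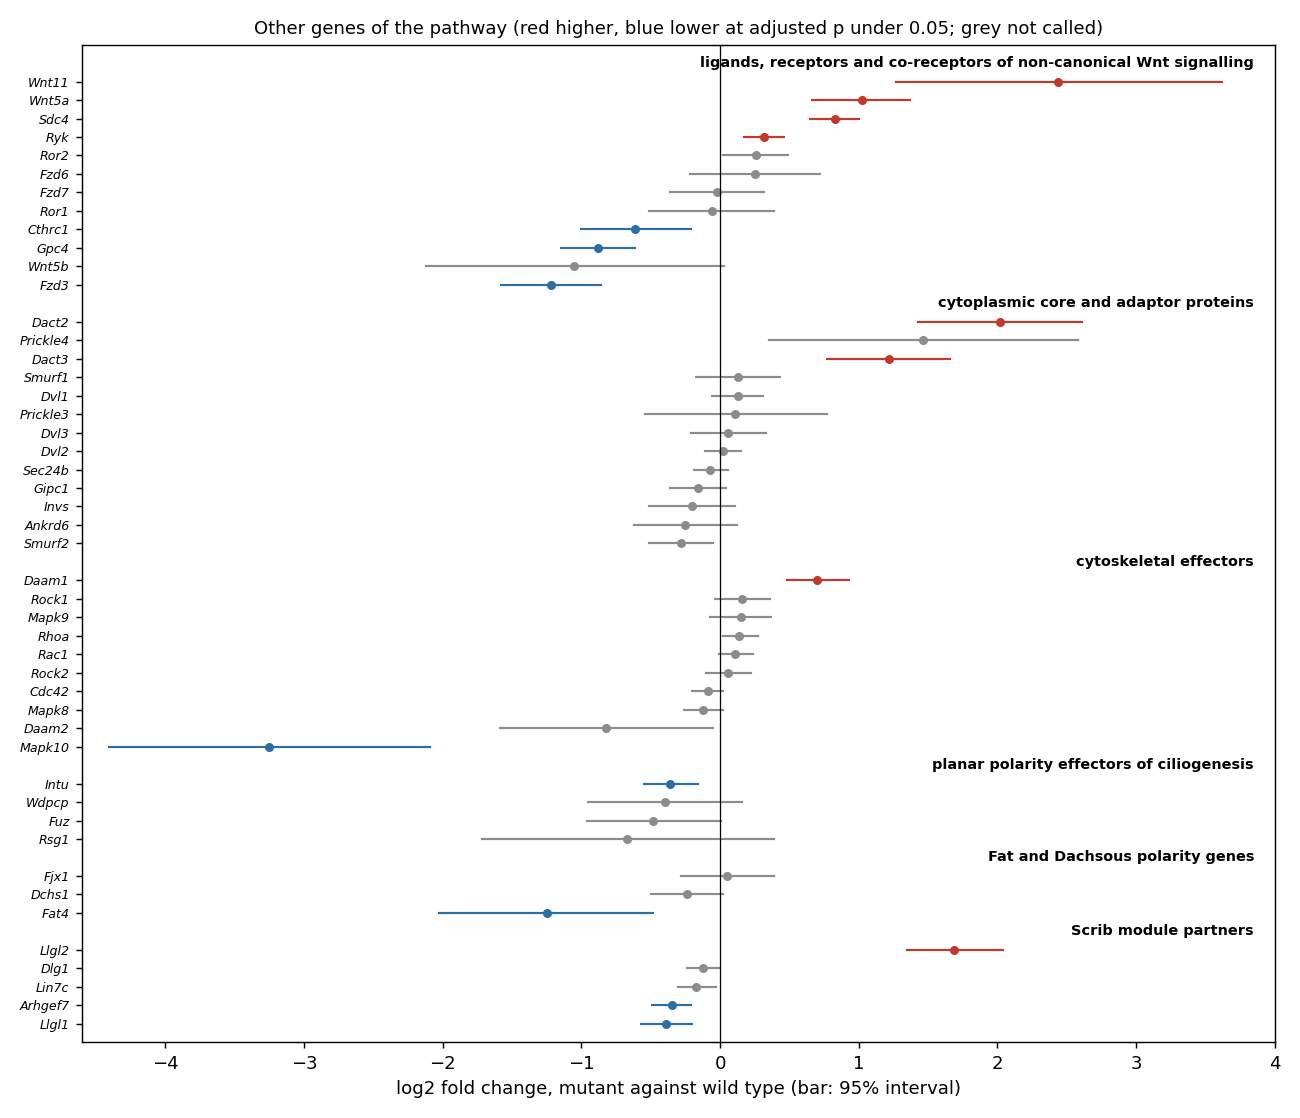
Log2 fold changes in mutant against wild-type heads of 47 other pathway genes (points) with 95% intervals (bars), by sub-list, with TMM scaling; red genes are higher, blue lower and grey not called. Of the called genes 8 are higher and 8 lower. Scaled to neural progenitor genes 37 are higher and 2 lower, where 10767 and 415 of all 15187 genes are. Intu, Llgl1 and Arhgef7 then turn, and Gpc4 and Fat4 are not called.

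Across the 6 libraries the genes whose centred log2 CPM lay closest to that of Vangl2, among 9286 genes with a mean of at least 10 CPM, were Atad5, Aldh6a1 and Fgf13, with root mean square differences of 0.040, 0.042 and 0.043. Atad5, for example, was at 59.9 and 64.3 CPM in mutant, 74.6 and 78.7 in heterozygous and 78.3 and 82.7 in wild-type heads. The nearest member, Celsr1, was at a difference of 0.111 and rank 448. Within the set the smallest differences over 6 libraries were between Celsr1 and Scrib (0.10) and between Vangl2 and Celsr1 (0.11), and the largest was between Celsr2 and Prickle1 (1.04). By correlation of the same log2 CPM, Vangl1 and Prickle1 ran together (Pearson r = 0.97), while Celsr2 and Prickle1 were opposed (r = -0.96). These values describe libraries that share genotype and tissue content, and no test was attached to them.

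In GENCODE M21 antisense transcripts overlap exons of Vangl1 (Gm16160), Ptk7 (Gm26904) and Dact1 (4930474H06Rik), and the strand setting of the counting is not given in the sources used here. If the counting ignored strand, reads of these partners cannot be told apart from those of the 3 genes. The genes lie on 7 chromosomes, with Celsr1, Prickle1 and Scrib on chromosome 15 and Vangl1 and Celsr2 on chromosome 3, so genes of opposite direction share a chromosome.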

How the data were processed

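The authors deposited raw counts per gene symbol for 6 libraries, and a table with RPKM per library and, for mutant against wild type, a log2 fold change, p-values and false discovery rates. Per the submitters' processing notes the tools include TopHat2 2.0.11, HTSeq 0.6.1p2 and edgeR 3.8.6, and the build is mm10. No source used here gives the annotation, the gene lengths behind RPKM or the strand setting. HTSeq's summary lines (8.93% to 10.5% of read pairs in no feature) were left out. The tests on counts used edgeR 4.0.16 under R 4.3.3 (glmQLFit and glmQLFTest, TMM, filterByExpr by group, all 6 libraries in 1 fit, 3 residual degrees of freedom) on 15187 genes, with Benjamini-Hochberg adjustment over all of them at 0.05. CPM of single genes use TMM library sizes, and marker sums the library totals. A standard error is the absolute log2 fold change over the square root of F. Count files were assigned by the title in the file name, checked at genes with over 50 reads. The members, marker lists and pathway lists were chosen with earlier results of these data known. Named genes are all 10 members, Prdm15, up to 4 called pathway genes per sub-list by smallest p, Wnt5a, Fzd3, Fzd6 and the Dvl genes, and the 3 genes nearest Vangl2 in profile. The fit was tested on simulated counts. Alternatives were files as attached, other scalings, filters and tests (DESeq2 1.42.0, limma 3.58.1), an Xist term and single libraries left out. The Xist term was set by the difference between the wild-type libraries, so it is not a check separate from leaving out 1 of them. Of the table's per-sample columns 0 went unused.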

Additional observations from a re-analysis of the deposited data

How the results depend on the processing

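No paired analysis was possible because the labels number no replicates: the numbers used here follow the order of the samples and tie them to no litter or batch. The cause of the differences below was not tested. With the count files under the samples they are attached to, 0 genes, 0 members and 0 other pathway genes were called in mutant against wild-type, heterozygous against wild-type and mutant against heterozygous heads. For mutant against wild-type heads the log2 fold changes that turned were then Vangl2 0.12, Celsr1 0.13, Celsr2 0.04, Wnt5a -0.16, Dvl1 -0.07, Dvl2 -0.02, Dvl3 -0.19, Prdm15 0.07, Dact2 -0.05, Dact3 -0.24, Daam1 -0.11, Mapk10 0.10, Fat4 0.36, Llgl2 -0.19 and Arhgef7 0.02. Against wild type the heterozygous values that turned were Celsr1 0.02 and Celsr3 0.25, and in mutant against heterozygous heads Vangl1 -0.11, Celsr1 0.10, Celsr2 0.04, Prickle2 -0.04 and Scrib 0.04.

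Scaled to neural progenitor genes, 11182 genes (10767 higher and 415 lower, against 2594 and 2060 with TMM) and 39 other pathway genes (37 higher and 2 lower) were called in mutant against wild-type heads. In heterozygous against wild-type heads the scaling gave 1696 genes, 3 members and 7 other pathway genes, and in mutant against heterozygous heads 8117, 6 (all higher) and 24 (22 higher and 2 lower). The values that turned were Vangl2 0.33, Celsr1 0.33, Celsr3 0.03, Scrib 0.45, Prdm15 0.49, Intu 0.35, Arhgef7 0.35 and Llgl1 0.32 in mutant against wild-type heads. In heterozygous against wild-type heads they were Celsr1 0.03, Celsr3 0.22, Scrib 0.08 and Ptk7 0.18, and in mutant against heterozygous heads Vangl2 0.08, Celsr1 0.31 and Scrib 0.37.

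In heterozygous against wild-type heads no low-count filter gave 1189 genes, 2 members and 5 other pathway genes. DESeq2 gave 1890 genes, 4 members and 8 other pathway genes there, the likelihood ratio test 1579, 4 and 7, and the Xist term 516 genes and 0 members, with Ptk7 at 0.02. In mutant against heterozygous heads no filter gave 182 genes and 1 member. DESeq2 gave 1313 genes, 5 members and 10 other pathway genes, and the likelihood ratio test 801, 4 and 4. The fit of only the 2 genotypes gave 106 genes, limma without a filter 43 and the Xist term 4, each with 0 other pathway genes, and with the Xist term Scrib was at 0.04. In mutant against wild-type heads the Xist term gave 2500 genes.

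Leaving out each library in turn gave 1997 to 4265 genes, 5 to 7 members and 9 to 18 other pathway genes in mutant against wild-type heads. The ranges were 313 to 748, 0 to 2 and 0 to 4 in heterozygous against wild-type heads, and 11 to 81, 0 to 1 and 0 to 1 in mutant against heterozygous heads. Log2 fold changes near 0 crossed it: in mutant against wild-type heads Dvl2 at -0.04 to 0.08 and Dvl3 at -0.06 to 0.17, in heterozygous against wild-type heads Vangl2 at -0.03 to 0.06, Celsr3 at -0.07 to 0.03 and Ptk7 at -0.13 to 0.01, and in mutant against heterozygous heads Prickle2 at -0.10 to 0.14. Prickle1, Vangl1, Dact1, Celsr2 and Celsr3 stayed called in mutant against wild-type heads in all 6 of these fits. With 2 libraries per genotype, the 95% interval of Scrib, the smallest change called, ran from -0.41 to -0.09.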
